A study of Homo sapiens with 2 samples.

Results

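Dense CHD4 peak chains are stretches of the genome in which many separate CHD4 peaks lie close together. They were found in the authors' list of CHD4 ChIP-seq peaks by sorting the peaks on chromosomes 1 to 22 and X and joining neighbours whose gap was at most 12.5 kb. Every chain of 10 or more peaks was taken. This gave 584 dense chains among 26659 chains, or 2.19%, and they held 8314 of 60099 peaks, or 13.8% (95% Wilson interval 13.6 to 14.1). The remaining peaks lay in 14658 chains of 1 peak, here called lone peaks, and in 11417 chains of 2 to 9 peaks. The members were thus chosen by the positions of the peaks in the same list, so the number, spacing and span of the peaks describe the rule and are not findings.

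The study profiled CHD4 in untreated 501Mel cells, an established human melanoma cell line that retains the pigment lineage programme. One library came from the CHD4 ChIP and 1 from input chromatin of cells in RPMI 1640 medium with serum, fixed with 0.4% paraformaldehyde. There was no second condition, and with 1 library of each kind no value below has a replicate spread or a test. The list gives the fold enrichment of each peak and its −log10 q but no read counts, so the depth behind each value is unknown.

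CHD4 is the ATPase of the NuRD complex, which joins nucleosome remodelling by CHD4 to histone deacetylation by HDAC1 and HDAC2. NuRD is recruited to promoters and enhancers by DNA-binding factors and lowers or fine-tunes the activity of many of them. Clusters of closely spaced regulatory elements, often joined by a gap of the size used here, are known at genes that set cell identity. In melanocytes such genes include *MITF*, *SOX10* and *PAX3*.

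Short motifs of factors active in melanoma occur in the member peaks. At peak centres the motifs of AP-1, MITF and SOX were no more frequent there than in lone peaks, as given further on. The SOX motif was also in 33.2% of flanks centred 5000 bp from member peaks. Examples from chains described below are shown here. Each is the plus strand of hg19, 5′ to 3′, and was taken around the match nearest to the centre of the strongest peak of its chain that held the motif. Capitals mark matches, on either strand, to the AP-1 motif TGANTCA, the MITF M-box TCATGTG, the SOX motif ACAAAG or the core motif of CTCF. The stretch from *MITF* is shown because the strongest peak of its chain, with a fold enrichment of 3.61, carried 3 of these motifs within 90 bases.
MITF, chr3:69870195-69870284: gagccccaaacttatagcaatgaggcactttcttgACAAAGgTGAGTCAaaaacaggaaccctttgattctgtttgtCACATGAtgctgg
MITF, second chain, chr3:69962669-69962758: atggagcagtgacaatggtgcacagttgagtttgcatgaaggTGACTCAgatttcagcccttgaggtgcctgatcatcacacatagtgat
KIT, chr4:55607532-55607621: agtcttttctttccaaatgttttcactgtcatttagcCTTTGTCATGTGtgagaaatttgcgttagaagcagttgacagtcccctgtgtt
EDNRB, chr13:78554876-78554965: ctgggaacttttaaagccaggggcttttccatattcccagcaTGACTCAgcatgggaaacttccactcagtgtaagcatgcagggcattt
TWIST1, chr7:19140280-19140369: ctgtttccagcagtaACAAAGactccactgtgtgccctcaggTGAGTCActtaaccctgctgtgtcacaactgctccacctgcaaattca
TEAD1, chr11:12823532-12823621: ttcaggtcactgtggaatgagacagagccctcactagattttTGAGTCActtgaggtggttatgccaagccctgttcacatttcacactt
LITAF, chr16:11734470-11734559: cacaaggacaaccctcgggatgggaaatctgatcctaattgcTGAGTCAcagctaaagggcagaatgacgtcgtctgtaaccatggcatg
In the *KIT* stretch the SOX and M-box letters share 1 base. The CTCF motif, whose share is set against that of lone peaks further on, is shown at *GATAD2A*, a NuRD subunit gene whose chain starts before the gene.
GATAD2A, CTCF, chr19:19477796-19477885: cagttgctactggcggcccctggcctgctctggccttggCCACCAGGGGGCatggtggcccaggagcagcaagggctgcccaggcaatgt

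Most dense chains were only a little above the limit of the rule. The median chain held 13 peaks, 514 chains held 10 to 19, 70 held 20 or more and 12 held 30 or more. The median span was 56595 bp, with quartiles of 44241 and 74524 bp and a range of 19972 to 204271 bp. Together the chains spanned 36.5 Mb, or 1.29% of the sequenced bases of these chromosomes. Peaks covered a median of 26.5% of a chain, from 7.41% to 74.5%, and the median gap between neighbours was 2142 bp. At the edge of the rule, the 130 chains of 10 peaks had a median span of 41652 bp and a median fold enrichment of 3.09, against 39406 bp and 3.11 in the 157 chains of 9 peaks. The largest gap inside a dense chain was 12496 bp and the smallest beside one was 12503 bp, and 500 bp more would have joined 26 pairs of shorter chains into dense ones. The shortest chain of 9 peaks lay within *PDE3A* and spanned 16027 bp.

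The 10 chains with the most peaks held between 30 and 46, with the shorter chain taken first where numbers were tied. The largest, of 46 peaks, spanned chr3:138435096-138639076 and covered the start of *PIK3CB*, a catalytic subunit gene of PI3-kinase, with 28 peaks in the gene body. *SEMA5A*, which encodes a guidance molecule of the semaphorin family, held 2 of the 10 largest chains, of 45 and 33 peaks, all inside the gene. *JARID2*, a cofactor of the Polycomb complex PRC2, held 44 peaks in the longest chain, chr6:15300811-15505081, and that chain lay wholly after the start of the gene.

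**Figure D1:**
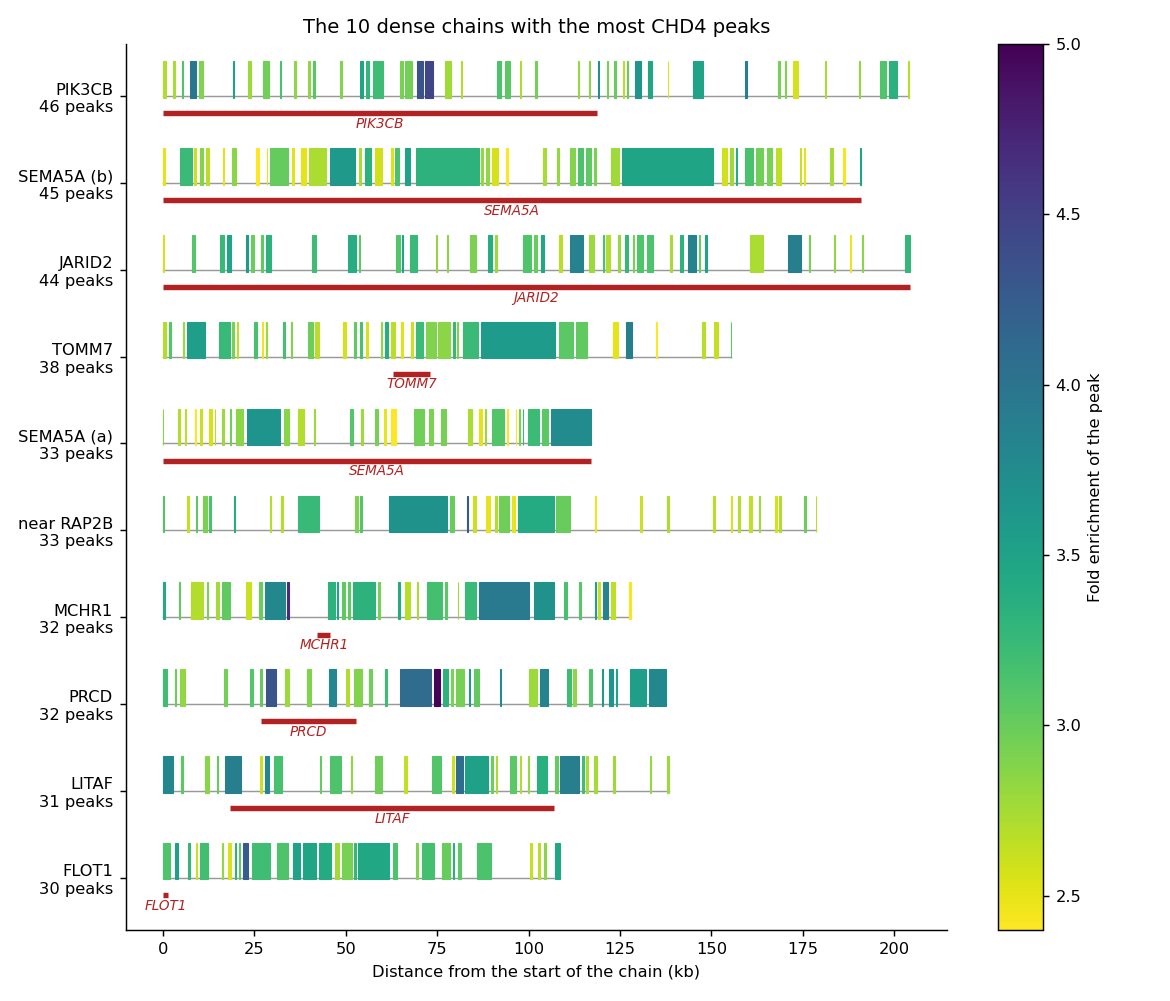
Peaks of the 10 largest dense chains, each drawn from the start of its chain in kb. Bars show each peak to scale, with colour for its fold enrichment, and red lines show the protein-coding gene that overlaps most peaks, cut at the ends of the chain. The *SEMA5A* and *JARID2* chains lie inside 1 gene, whereas those at *TOMM7*, *MCHR1* and *FLOT1* lie mostly outside the gene named.

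Peak strength in the 3 largest chains was near or below that of all dense-chain peaks, whose median fold enrichment was 3.07. In the *PIK3CB* chain, fold enrichment ran from 2.51 to 4.47 with a median of 2.95. In the longer *SEMA5A* chain it ran from 2.38 to 3.60 with a median of 2.77, and the chain included a peak of 25056 bp, the longest of all. The *JARID2* peaks ran from 2.48 to 3.88 with a median of 3.10. No peak of these 3 chains reached a −log10 q of 5. The background level under the peaks, the level at which the authors' fold enrichment has the authors' p, was a median of 4.59 in the longer *SEMA5A* chain and 4.49 in lone peaks within 5 Mb of it, against 2.88 over all peaks. Its part in the peak number at *SEMA5A* was not tested.

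The next chains were mixed in their gene content. That at *TOMM7*, a subunit of the mitochondrial import pore, held 38 peaks of which 5 lay in the gene. A chain of 33 peaks had no protein-coding gene under any peak, and the nearest start, that of the small GTPase gene *RAP2B*, lay 19202 bp away. At *MCHR1*, the melanin-concentrating hormone receptor gene, 1 of 32 peaks lay in the gene. The chain of 32 peaks around *PRCD* and the globin gene *CYGB* had 20 peaks in the long non-coding RNA gene *SNHG16*, and 16 of its peaks lay at promoters. *LITAF*, a regulator of late endosomes, held 19 of 31 peaks, and an AP-1 match in a peak before its start is shown above. The chain of 30 peaks next to *FLOT1* and the stress-response gene *IER3* had 16 peaks in the non-coding *HCG20*.

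Summed over chains, *SEMA5A* held the most dense-chain peaks of any protein-coding gene, 78 of its 94. *JARID2* followed with 44 of 50, and *CHST11*, a chondroitin sulfotransferase gene, with 41 of 44. The others with 31 or more were *ROBO1*, a Slit receptor gene, with 36, *PLCB4* (a phospholipase C), *EPHA3* (an ephrin receptor) and *MAML2* (a Notch coactivator) with 35 each, *NSMCE2* and *MITF* with 32 each, and *BCAS3* and *BCAR3*, which were tied for the tenth place, with 31 each. The median fold enrichment of their dense-chain peaks lay between 2.63, in *BCAR3*, and 3.15. These are long genes. *MITF*, the shortest of the 11, spans 228881 bp. *CHST11*, *ROBO1* and *PLCB4* each led 3 dense chains, and 21 genes led more than 1.

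Over all dense chains, 302 (51.7%, Wilson interval 47.7 to 55.7) had at least 50% of their peaks in 1 protein-coding gene, here called the lead gene, and 154 had all of them there. The 302 chains had 278 different lead genes, with a median length of 138979 bp against 27257 bp for all protein-coding genes. A lead gene had to hold at least 50% of the peaks of a chain, which favours long genes. This difference in length is thus at least in part set by the definition and is not a finding. The start of the lead gene lay within the chain in 115 (38.1%). By layout, 149 chains lay wholly inside the lead gene, 91 spanned its start, 38 its end and 24 the whole gene. A further 169 covered several genes with none in the lead, and 113 had no protein-coding gene body under any peak. In 82 of those 113 a long non-coding RNA gene held the most peaks, and in 50 a protein-coding start lay within 50 kb.

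The layouts differed in their share of promoter peaks and in GC content. A peak was at a promoter if it came within 1000 bp of an annotated transcription start. In chains wholly inside a gene 10.2% of peaks were at promoters and the median GC content was 41.5%. In chains over several genes the values were 27.6% and 46.9%, and in chains without a protein-coding gene 11.9% and 42.8%. Median fold enrichment was 3.06, 3.09 and 3.06, in the same order.

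The share of dense-chain peaks at promoters was below that of lone peaks, and the intervals did not overlap. Of the 8314 peaks, 18.8% (18.0 to 19.6) were at a promoter, against 25.7% (25.0 to 26.4) in chains of 1 peak and 23.2% in chains of 2 to 9. The share was lower in dense chains than in chains of 1 peak on 21 of the 21 chromosomes with at least 20 member peaks. For starts of protein-coding genes alone it was 12.4% against 20.5%. These intervals cover counting error only and treat peaks as independent, although peaks of a chain share their surroundings. With a joining gap of 5000 bp the share over all starts was 16.8% against 24.9% of lone peaks. With 25000 bp it was 22.1% against 25.3%. The share in dense chains is thus not independent of the rule. As the spans are wide, 481 of the 584 chains (82.4%) still had a promoter peak, and 290 (49.7%) contained a protein-coding start. The spans held 15.5 protein-coding starts per Mb, against 6.99 over the sequenced bases.

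**Figure D2:**
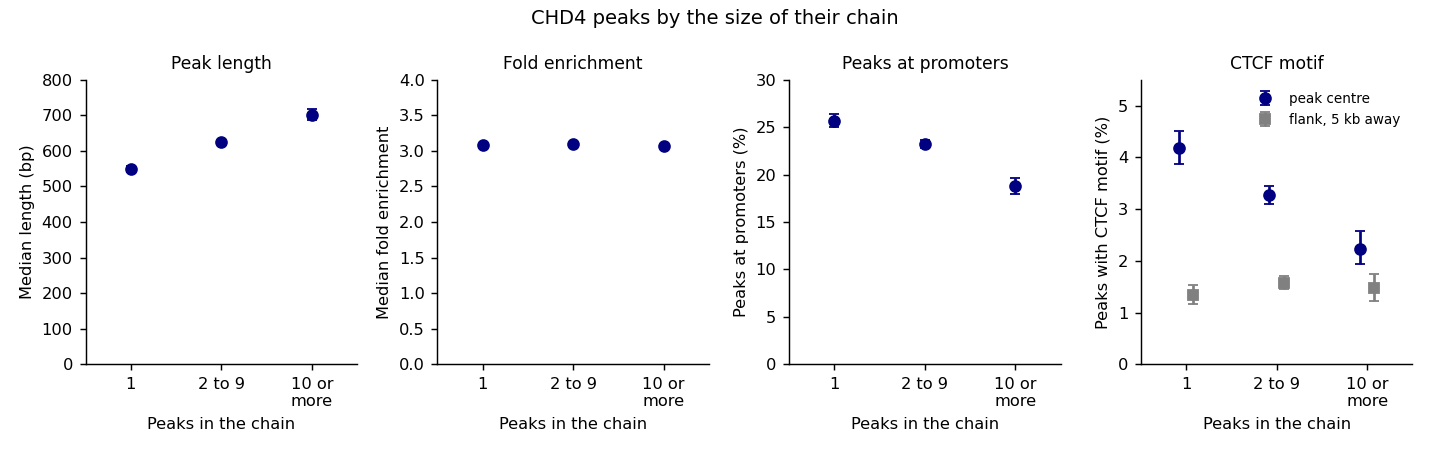
Length, fold enrichment, promoter share and CTCF motif share (y axes) of CHD4 peaks in chains of 1, of 2 to 9, and of 10 or more peaks (x axes), with 95% intervals that cover counting error only. Dense-chain peaks are longer, close in fold enrichment (3.07 against 3.09), lower in promoter share (18.8% against 25.7%) and lower in CTCF share at the centre (2.24% against 4.18%), with 1.47% and 1.34% in flanks 5000 bp away.

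The promoter peaks of dense chains also differed in base composition. The ratio of observed to expected CpG, which is high in CpG islands, had a median of 0.284 at dense-chain promoter peaks and 0.414 at lone promoter peaks. Their median GC content was 48.8% against 50.8%. Both measures were taken over the whole peak, and dense-chain promoter peaks were longer, with a median of 937 bp against 620 bp. Fewer of them, 66.1% against 79.7%, were at starts of protein-coding genes. The part of length and gene type in the difference was not tested. Away from promoters the order of GC content was turned, with 43.1% in dense chains and 42.0% in lone peaks. Over all peaks the medians were 43.8% and 43.6%, and the direction varied among chromosomes, being higher in dense chains on 9 and lower on 12.

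Of dense-chain peaks 57.4% were centred in introns of canonical transcripts, against 52.8% of lone peaks, and 4.45% in exons, against 6.07%. The share in first introns rests on fewer peaks, 3546 member and 5924 lone peaks, than the 4770 and 7736 centred in introns. Of those counted, 36.4% (34.8 to 37.9) of member peaks were in the first intron, against 27.4% (26.3 to 28.5) of lone peaks. The chains of 2 to 9 peaks gave 34.7%, and first introns made up 24.6% of all intron bases.

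By strength, dense-chain and lone peaks were close. The median fold enrichment was 3.07 (3.06 to 3.08) in dense chains and 3.09 (3.08 to 3.09) in chains of 1 peak, and it was lower in dense chains on 11 of 21 chromosomes. A −log10 q of 5 was reached by 177 member peaks, or 2.13% (1.84 to 2.46), against 2.35% of lone peaks and 2.23% of all peaks, so the share was near the background. A q of at most 0.01 was reached by 50.2% of member peaks, 45.8% of lone peaks and 48.5% of all peaks. The strongest peaks were fewer, with a fold enrichment of at least 5 in 0.349% (0.243 to 0.500) of member peaks and 0.641% (0.524 to 0.784) of lone peaks. Peaks were longer in dense chains, with a median of 702 bp against 549 bp, and 8.89% against 1.53% reached 3000 bp. Long peaks leave shorter gaps, so length is not independent of the rule.

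Most dense chains had no peak of very high fold enrichment. The highest fold enrichment of a chain had a median of 3.97, and it was at least 5 in 28 chains. In 149 chains (25.5%) some peak reached a −log10 q of 5, and 23 chains had 2 or more such peaks. Such peaks made up 2.13% of member peaks and 2.23% of all peaks. As a chain holds many peaks, the counts per chain follow at least in part from that share. The strongest peak was at a promoter in 138 chains (23.6%, 20.4 to 27.2), set beside 18.8% of all member peaks. The clearest exception was the chain at *EEF1A1*, the gene of a translation elongation factor that is active in all cells. Its strongest peak, at the promoter, had the highest fold enrichment in any dense chain, 14.0 (−log10 q 43.7), while the other 16 peaks lay between 2.61 and 4.06. The source of this outlying value was not tested. The 150 bases at the centre of this peak are shown with the 11 CpG in capitals, beside those of the strongest *PAX3* peak, which had 3.
EEF1A1, chr6:74230840-74230989: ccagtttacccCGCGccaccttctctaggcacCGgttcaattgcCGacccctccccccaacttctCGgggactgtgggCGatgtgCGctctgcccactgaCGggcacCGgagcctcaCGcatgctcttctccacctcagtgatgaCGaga
PAX3, chr2:223084879-223085028: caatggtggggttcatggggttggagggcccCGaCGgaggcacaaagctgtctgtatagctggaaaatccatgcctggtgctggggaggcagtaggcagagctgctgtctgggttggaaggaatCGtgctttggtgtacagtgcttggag
The most densely packed chain was of another kind. It held 10 peaks in 19972 bp over and before the start of *SHC4*, a signalling adaptor gene, with fold enrichment between 2.82 and 3.56.

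The motif of CTCF, the factor that anchors chromatin loops, was less frequent at the centre of dense-chain peaks than of lone peaks. The intervals did not overlap, but they cover counting error only and treat peaks of a chain as independent. The motif lay within 250 bp of the centre in 2.24% (1.94 to 2.58) of member peaks, 3.27% of peaks of chains of 2 to 9, and 4.18% (3.87 to 4.52) of lone peaks. In flanks centred 5000 bp away the shares were 1.47%, 1.57% and 1.34%, so the ratio of centre to flank was 1.52 in dense chains and 3.13 in lone peaks. Away from promoters the centre shares were 2.07% and 4.14%. When the whole peak was searched, the longer dense-chain peaks held the motif in 4.63% of cases and lone peaks in 4.29%. At least 1 member peak with the motif at its centre was found in 144 chains (24.7%), and 7 chains had 3 or more.

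The motif of ETS factors, CCGGAAG, was at the centre of 2.14% of member peaks and 3.82% of lone peaks, over flanks of 1.56% and 1.31%. The ratio of centre to flank was 1.37 and 2.92, from flanks that are again not alike. At promoters it was in 4.10% against 9.37%, and away from promoters in 1.69% against 1.90%. The AP-1 motif was in 17.3% (16.5 to 18.1) of member peaks and 18.4% (17.7 to 19.0) of lone peaks, over flanks of 14.8% and 15.2%. The M-box, bound by MITF, was in 10.5% and 12.0%, over flanks of 7.02% and 7.27%, and the palindrome CACGTG, which contains the E-box core, in 6.66% and 8.93%. SOX motifs were in 36.2% and 38.9%, and the TEAD motif GGAATG in 26.5% and 26.3%. Over whole peaks, which are longer in dense chains, the order of several motifs was turned. The AP-1 motif was then in 30.6% of member peaks and 23.3% of lone peaks, and the M-box in 19.6% and 15.7%. The palindrome was in 13.5% and 11.8%, SOX motifs in 50.5% and 43.3%, and the TEAD motif in 41.4% and 32.3%, whereas the ETS motif was in 4.49% and 4.70%. Because chains hold many peaks, 91.1% of them had a peak with an AP-1 match and 76.0% one with an M-box, and the *TEAD1* chain had the most M-box peaks, 8 of 26. The motif letters are matches in these windows and not measured binding.

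Pigment-lineage genes were among those covered by dense chains. Of all 20090 protein-coding genes, 766 (3.81%) had a dense-chain peak in the gene body. Of 26 melanocyte and pigment genes, 7 did (26.9%, 13.7 to 46.1), namely *MITF*, *PAX3*, *TYRP1*, *KIT*, *EDNRB*, *BCL2A1* and *SLC24A5*. Of 23 neural crest transcription factor genes, 6 did (26.1%), namely *SOX6*, *SNAI2*, *TWIST1*, *ZEB2*, *ETS1* and *ID3*. In their bodies, 25 of the 26 pigment genes and 13 of the 23 neural crest genes held some CHD4 peak, against 10232 of all 20090 genes. The lists were chosen with earlier results of these peaks known, so the shares are a description. Of genes under 20000 bp 3.21% were covered, and the share was lowest, 2.85%, in the next class, up to 50000 bp. It was 3.95% up to 100000 bp, 5.55% up to 200000 bp and 7.54% in longer genes. The pigment and neural crest genes had median lengths of 51912 and 14326 bp.

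**Figure D3:**
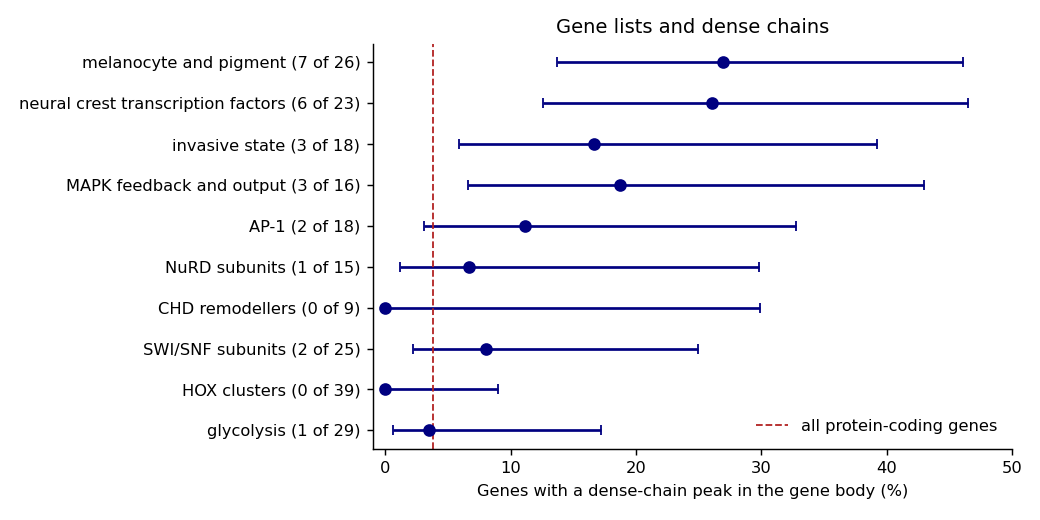
Share of genes in each list with a dense-chain peak in the gene body (x axis, percent), as points with 95% Wilson intervals, and the share of all protein-coding genes, 3.81%, as the dashed line. The pigment and neural crest lists, at 26.9% and 26.1%, lie furthest to the right, and no CHD remodeller or HOX gene had such a peak.

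*MITF*, the master transcription factor gene of melanocytes, held 32 dense-chain peaks in 2 chains. The first, chr3:69824705-69873929, had 11 peaks in the introns that precede the melanocyte start, with fold enrichment from 2.60 to 3.61 and a median of 3.14. The second, chr3:69931096-70018880, had 22 peaks from 2.53 to 3.63 with a median of 3.03. One of them, of 2884 bp and with a fold enrichment of 3.28, covered a group of 6 annotated starts between 69985738 and 69985980. No peak of either chain reached a −log10 q of 4, and the highest was 3.46.

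The chain in *PAX3*, an activator of *MITF*, had the highest single value of the pigment list. Its 15 peaks, chr2:223084812-223141214, all lay in the gene, with fold enrichment from 2.63 to 5.19 and a median of 3.39. The strongest peak, of 284 bp, had a q of 7.56 as −log10. It covered the whole of exon 7 of the canonical transcript and extended 47 bp and 22 bp beyond its ends. Its neighbour, of 158 bp with a fold enrichment of 3.53, overlapped exon 6. The next highest peaks lay in introns, at 3.91, 3.80 and 3.65.

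*TYRP1*, an enzyme gene of melanin synthesis, is short, at 24847 bp, and its chain of 13 peaks began 18696 bp before it. The largest peaks were upstream, of 5532 bp at a fold enrichment of 3.84 and of 6093 bp, reaching over the start, at 3.52. The 8 peaks in the gene body had a median of 3.06, and the strongest of the chain, at 4.16, lay just after the gene.

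*KIT*, the receptor of stem cell factor, had 11 peaks in the distal part of the gene and beyond it. The strongest, at 4.52 with a −log10 q of 5.80, lay just after the end of the gene and holds the M-box shown above. Another, of 7558 bp, reached 3.82. *EDNRB*, the endothelin receptor gene of the lineage, had 21 peaks over 111661 bp, from 2.50 to 3.74. Of these, 13 lay in the gene body as annotated, which is extended to 80049 bp. A group of 6 *EDNRB* starts lay between 78492934 and 78493903, and most of the 13 peaks lay upstream of them. The chain at *BCL2A1*, a survival gene under MITF control, had 14 peaks with 2 in the gene. That at *SLC24A5*, an ion exchanger of melanosomes, had 11 with 1 in the gene, and its highest value, 4.79, lay upstream.

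**Figure D4:**
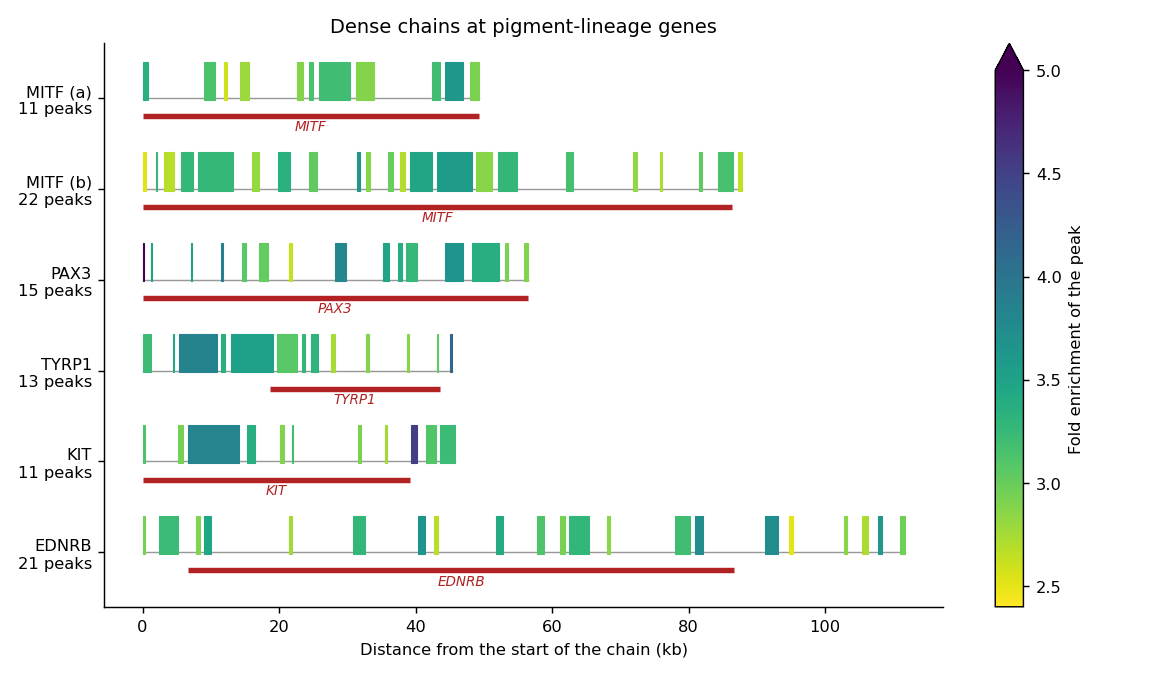
Peaks of the dense chains at *MITF* (2 chains), *PAX3*, *TYRP1*, *KIT* and *EDNRB*, drawn from the start of each chain in kb, with colour for fold enrichment and the named gene in red, cut at the ends of the chain. The highest values, 5.19 and 4.52, belong to single short peaks at the left end of *PAX3* and after the end of *KIT*.

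Other pigment genes fell short of the rule. *SOX10* had 5 peaks in its body and its largest chain had 9 peaks, just outside the limit. The largest chain at *RAB38* had 8 peaks, and those at *MYO5A* and *MREG* had 7 each. At *MLANA* it had 6 peaks, at *DCT* 4, at *OCA2* 3, at *TYR* 2 and at *PMEL* 1.

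Among the neural crest factors, *TWIST1* had 18 peaks over 64063 bp, with 16 in the gene body as annotated, which is extended to 96646 bp, and a range of 2.43 to 3.77. The chain at *SNAI2* also had 18 peaks, over 105215 bp. The gene itself held 1 of them, at 4.11, and the highest value of the chain was 4.71. *SOX6* held 14 of its 66 peaks in a dense chain, *ETS1* 10 of 18 and *ZEB2* 8 of 22. In the *ZEB2* chain 7 of 10 peaks were at promoters, and its background level, 4.23, was 1.21 times that of lone peaks within 5 Mb. *ID3* held 1 peak in its body, in a chain of 12 peaks of which its neighbour *E2F2* held 2. Peaks of 5021 and 5159 bp in that chain lay at *ID3* starts.

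The other lists had fewer members covered, to be read against 3.81% of all protein-coding genes. In the invasive list, *TEAD1*, a partner of YAP, held 26 of 29 peaks over 144981 bp, from 2.63 to 4.16, whereas *FN1*, the fibronectin gene, held 1, at 3.96. In the MAPK list *ETV1*, *ETV5* and *PHLDA1*, of 16 genes (18.8%, 6.59 to 43.0), had a dense-chain peak, with 9 peaks in *ETV5*. In the AP-1 list *FOSB* and *MAFF*, of 18 genes (11.1%, 3.10 to 32.8), did, the second with a peak at 4.68. Among remodelling genes, *GATAD2A* was covered of 15 NuRD subunits (6.67%, 1.19 to 29.8) and *ARID1B* and *BCL7C* of 25 SWI/SNF subunits (8.0%, 2.22 to 25.0), and both intervals include the share of all genes. In *ARID1B* 11 of 30 peaks lay in a dense chain, of up to 4.39. None of 9 CHD remodeller genes (interval up to 29.9%) and none of 39 HOX genes (up to 8.97%) was covered, and these intervals also include 3.81%. Some CHD4 peak was present in 8 and 15 of them, against 10232 of all 20090 genes. One of 29 glycolysis genes was covered (3.45%, 0.611 to 17.2), near the share of all genes, namely *ALDOA* with 1 peak at 2.97.

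Dense chains were unevenly spread over chromosomes. Chromosome 19 had 7.17 dense chains per 10 Mb and 22.3% of its peaks in them. Chromosomes 20, 17, 22, 1 and 6 followed with 4.87, 4.37, 4.01, 3.82 and 3.35. Chromosome 1 had the most chains, 86. At the other end, chromosomes 18 and X had 1 dense chain each, or 0.134 and 0.0662 per 10 Mb, and chromosome 14 had 0.453. The density of all peaks moved with this order in part. It was 43.5 peaks per Mb on chromosome 19, 39.2 on chromosome 22, 9.84 on chromosome 18 and 4.94 on chromosome X. Chromosome 20, next after chromosome 19 in dense chains, had 30.5 peaks per Mb, below chromosome 22.

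**Figure D5:**
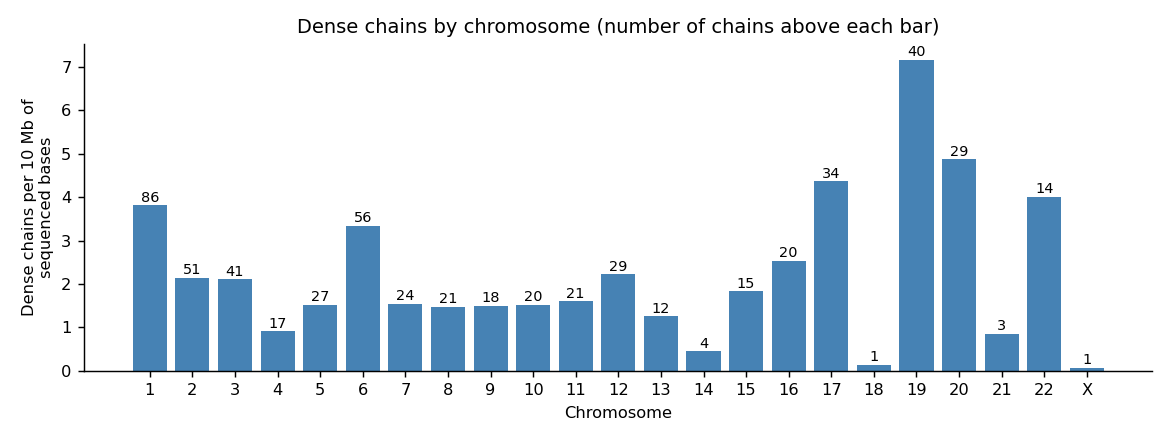
Dense chains per 10 Mb of sequenced bases (y axis, bars) on each chromosome (x axis), with the number of chains above the bar. Chromosome 19 stands highest at 7.17, and chromosomes 18 and X hold 1 chain each.

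The background level under lone peaks was 2.55 on chromosomes 14 and 18. It was 3.26 on chromosome 1, 3.40 on chromosome 20 and 3.70 on chromosome 22, but 2.62 on chromosome 19. Under dense-chain peaks the median level was 3.06 (3.05 to 3.08), against 2.78 (2.77 to 2.79) under lone peaks, and it was higher in dense chains on 20 of 21 chromosomes. Set against lone peaks within 5 Mb, the level of a dense chain had a median ratio of 1.04. The ratio was above 1 in 418 of 583 chains, above 1.5 in 2, and at most 3.82. The part of this level in the number of called peaks was not tested.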

How the data were processed

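One CHD4 ChIP library and 1 input library of 501Mel cells were compared by the authors in 1 peak list. Per the labels, Bowtie 1.0.0, MACS2 2.1.1.20160309 and bcl2fastq 2.17.1.14 were used on hg19. The authors kept single-position reads and called broad peaks with reads extended to 151 bp. That the input served as the control is stated by no source and was assumed. The list is per peak region and was not pooled over replicates. The deposited score is a whole number that was not used. The deposited fold enrichment is a ratio of ChIP over background, and the deposited −log10 p and −log10 q are the peak caller's. The list holds no read counts.

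Peaks on chromosomes 1 to 22 and X were chained as described, and 27 on Y and the mitochondrion were left out. Positions count from 1 and were compared with GRCh37 and GENCODE 44 mapped to it. No peak exceeded a chromosome end. An overlap of 1 bp counted. Motifs were searched on both strands. The background level solves the Poisson p for the fold with a pseudocount of 1, the usual form of the caller, which the list does not state. Ratios to lone peaks within 5 Mb need 20 of them. Intervals are 95% Wilson for shares and order-statistic for medians. Named protein-coding genes hold the most peaks of the 10 largest, the longest, the densest or the strongest chains. Others hold the most dense-chain peaks, or belong to 10 lists and are covered. One covered gene of the invasive list is not reported here. Pigment genes short of the rule, and *BCAR3*, tied for the last place, were named after their values were seen. Members and lists were chosen with earlier results of these data known. The steps were tested on simulated data. Computation ran in Python 3.11.15, with pysam 0.24.0 for sequence, scipy 1.17.1 and numpy 2.4.6 for intervals, pandas 2.3.3 for tables and matplotlib 3.10.9 for plots.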

Additional observations from a re-analysis of the deposited data

How the results depend on the processing

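Values here were recomputed with another gap, with peaks of q at most 0.01 alone, and with peaks within 1000 bp merged. Of 50 recomputed values, 13 stayed within the interval of the value reported and 37 moved. With a gap of 5000 bp there were 140 dense chains with 2.83% of peaks and a median span of 35875 bp. Their peaks had a −log10 q of at least 5 in 1.53%, a promoter in 16.8%, a GC content of 42.7% and a CTCF motif in 1.35%, and the strongest peak was at a promoter in 17.1% of chains. With a gap of 25000 bp there were 1191 chains with 33.1% of peaks and a span of 96698 bp. The promoter share was 22.1%, GC 44.2%, CTCF 3.09%, chains led by 1 gene 45.5% and strongest peaks at promoters 29.8%. With peaks of q at most 0.01 there were 37 chains with 1.50% of those peaks, a span of 59609 bp, a fold enrichment of 3.35, −log10 q of at least 5 in 3.44%, promoters in 25.9%, GC 44.8%, CTCF in 1.83%, 32.4% led by 1 gene and 18.9% with the strongest peak at a promoter. With merged peaks there were 327 chains with 8.28% of peaks, a span of 70659 bp, a fold enrichment of 3.09, −log10 q of at least 5 in 2.54% and promoters in 20.2%. Promoters of 5000 bp on either side gave 42.7% and protein-coding starts alone 12.4%. Counting all annotated genes, 63.9% of chains were led by 1 gene. Searched over whole peaks, AP-1 was found in 30.6% and CTCF in 4.63%. The promoter share and the central CTCF share were below those of lone peaks under the chosen gap and all 4 other ways of chaining. No paired analysis was possible because the ChIP and the input are a lone library each, and nothing here was tested between samples. Depth cannot be read from the list, so a stretch without peaks may only fall short of the authors' threshold.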
